A study of Mus musculus with 9 samples.

Results

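The transcripts described here encode 10 proteins that neutrophils store in granules or hold in the cytosol, read in mouse megakaryocytes, the platelet-forming cells of the marrow, as they mature in culture. The genes were chosen by name: 4 of the primary (azurophil) granule (Elane, Prtn3, Ctsg and Mpo), and 6 that are made later (Ltf, Lcn2, Camp and Ngp of the secondary and later granules, and the cytosolic S100a8 and S100a9). Each of the 10 had exactly 1 probe set assigned to it alone, all 10 passed the filter on low values, and they are 10 of 12393 genes measured and 9397 tested. The arrays were Affymetrix MOE430A, on which a probe set is a group of short oligonucleotides that reports 1 transcript. The probe set of S100a8 carries the suffix with which Affymetrix marks probes that may also bind related transcripts.

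The 9 arrays came from primary mouse cells, for which the labels name no genetic change or added treatment, at 4 stages called MKP (2 arrays), MK3 (2), MK4 (2) and MK6 (3). Bone marrow or fetal liver cells had been grown with thrombopoietin, the cytokine of this lineage, and sorted by flow cytometry on the surface integrin CD41 and on forward scatter, a measure of size. The digits in MK3, MK4 and MK6 match the culture days sampled, and no day is given for MKP, nor the age, strain or number of the mice, which tissue gave which array, or whether replicate arrays stem from different cultures. The p-values therefore measure only the spread between these arrays, which may be technical. Replicates 2 and 3 of MK6 are those whose titles carry the numbers 1 and 2.

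Neutrophil granules are filled in the order in which their proteins are made. Serine proteases and myeloperoxidase are made first, in promyelocytes, and go into the primary granules. Lactoferrin, lipocalin 2 and the cathelicidins follow in myelocytes and fill the secondary granules, and the calcium-binding proteins S100A8 and S100A9 build up in the cytosol of maturing neutrophils and monocytes. Early steps of this programme depend on the transcription factors PU.1, C/EBPα, Myb and Runx1, and the secondary granule genes on C/EBPε.

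The promoter windows of the 4 primary granule genes and of 2 later ones are printed because the 2 groups of genes had different levels over the stages, as described further on. They run from 250 bases before to 50 bases after the annotated start, from RefSeq on GRCm38.p6, 5′ to 3′ on the gene's strand. All 10 genes matched by symbol. Capitals mark the letters searched for on both strands: TTNNGCAA for C/EBP, GAGGAAG for PU.1, CAACNG or TAACNG for Myb and TGTGGT for RUNX factors.
Elane (chr10:79886062-79886361, plus strand): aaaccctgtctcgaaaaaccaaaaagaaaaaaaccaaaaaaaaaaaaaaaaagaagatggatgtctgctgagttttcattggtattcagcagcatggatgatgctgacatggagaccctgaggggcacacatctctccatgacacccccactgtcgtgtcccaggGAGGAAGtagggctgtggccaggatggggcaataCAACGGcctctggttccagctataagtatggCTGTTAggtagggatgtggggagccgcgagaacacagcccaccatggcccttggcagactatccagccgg
Prtn3 (chr10:79879417-79879716, plus strand): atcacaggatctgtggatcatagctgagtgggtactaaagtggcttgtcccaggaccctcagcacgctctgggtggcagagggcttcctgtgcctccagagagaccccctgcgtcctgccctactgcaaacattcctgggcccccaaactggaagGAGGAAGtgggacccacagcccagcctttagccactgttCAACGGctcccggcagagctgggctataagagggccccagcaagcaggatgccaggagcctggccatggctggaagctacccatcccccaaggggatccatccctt
Ctsg (chr14:56102525-56102824, minus strand): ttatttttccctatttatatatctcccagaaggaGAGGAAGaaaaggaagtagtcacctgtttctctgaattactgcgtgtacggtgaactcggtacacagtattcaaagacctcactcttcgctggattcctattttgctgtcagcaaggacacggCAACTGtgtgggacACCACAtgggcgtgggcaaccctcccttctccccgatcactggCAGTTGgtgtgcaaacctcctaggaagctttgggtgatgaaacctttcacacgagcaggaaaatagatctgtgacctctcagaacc
Mpo (chr11:87793534-87793833, plus strand): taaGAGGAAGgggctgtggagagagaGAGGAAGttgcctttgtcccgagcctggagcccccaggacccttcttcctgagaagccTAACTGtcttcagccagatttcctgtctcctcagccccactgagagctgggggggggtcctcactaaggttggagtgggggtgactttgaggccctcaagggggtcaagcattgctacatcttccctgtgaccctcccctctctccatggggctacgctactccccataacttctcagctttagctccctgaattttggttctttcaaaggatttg
Ltf (chr9:111019042-111019341, plus strand): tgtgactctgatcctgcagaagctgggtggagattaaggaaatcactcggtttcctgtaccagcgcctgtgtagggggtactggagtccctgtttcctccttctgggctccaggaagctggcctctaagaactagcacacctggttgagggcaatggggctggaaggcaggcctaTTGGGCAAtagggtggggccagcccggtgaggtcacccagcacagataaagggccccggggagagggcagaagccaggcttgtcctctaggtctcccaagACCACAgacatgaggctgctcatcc
Ngp (chr9:110419558-110419857, plus strand): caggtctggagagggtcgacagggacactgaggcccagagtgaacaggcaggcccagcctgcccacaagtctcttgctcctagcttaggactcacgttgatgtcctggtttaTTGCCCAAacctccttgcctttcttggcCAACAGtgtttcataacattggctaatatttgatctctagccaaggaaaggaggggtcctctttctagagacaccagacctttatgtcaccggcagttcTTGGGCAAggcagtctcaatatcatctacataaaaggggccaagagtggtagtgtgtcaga

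The PU.1 letters stood in all 4 primary granule windows and in 2 of the 6 later ones (Lcn2 and S100a8), against 13.6% of the 32851 windows of the table. The C/EBP letters stood in 0 of the 4 primary granule windows and in 4 of the 6 later ones (Ltf, Lcn2, Ngp and S100a9), against 10.8% of all windows. Myb letters stood in all 4 primary and in 2 later windows (49.7% of all), and RUNX letters in 1 primary and 2 later windows (16.8% of all). The 2 later windows printed, Ltf and Ngp, have C/EBP letters and no PU.1 letters, and do not stand for all later genes. Among those not printed, Lcn2 has both, S100a8 only PU.1 letters, and Camp none of the 4 kinds. Elane, neutrophil elastase, and Prtn3, proteinase 3, are neighbouring genes with no coding gene between them. Their windows share an arrangement: GAGGAAG begins 85 bases upstream of the start in Elane and 95 in Prtn3, and the same 6 letters of the Myb type, CAACGG, begin 51 and 56 bases upstream. S100a8 and S100a9 are also direct neighbours, and Camp, Ngp and Ltf lie on chromosome 9 with 8 coding genes between Camp and Ngp and 20 between Ngp and Ltf. These matches are letters only, no binding was measured, and the window is short.

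The signals were scaled to a common level, so that a value of 161 is the trimmed mean of an array, and differences are on a log2 scale after adding 15.2. A gene is called at an adjusted p below 0.05 in limma, with the p adjusted by Benjamini-Hochberg over all genes tested. Before scaling, the trimmed means ran from 102 to 221, and the lowest were those of MK6 replicates 1 and 3. The beta-actin control read 3′ over 5′, a ratio that goes up as RNA fragments, gave 1.49, 1.33 and 3.21 on MK6 replicates 1, 2 and 3 and 0.957 to 1.09 on the other 6 arrays, and the same ratio for Gapdh was 3.27 on MK6 replicate 3 and 0.805 to 1.13 elsewhere. All 8 measured megakaryocyte markers were above the filter of 46.7 on every array except MK6 replicate 3, where 7 were (Itgb3 was at 15.02). Their summed signal was 9472 and 8918 on MKP, 9365 and 19390 on MK3, 20310 and 16330 on MK4, and 18340, 16590 and 15210 on MK6. In MK6 against MKP 1 of the 8 was called higher (Itga2b, 1.53, adjusted p = 0.0433 in limma) and 0 lower, against 5.69% of all tested genes in either direction. Without Itga2b and Pf4 (1.10, adjusted p = 0.0508) the other 6 summed to 3617, 5648 and 3131 on MK6, against 3858 and 3756 on MKP, and Itgb3 (-2.01, adjusted p = 0.0568) and Ppbp (-0.66) were below 0.

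All 10 granule and S100 transcripts were abundant in MKP and lower on average in MK6, and the falls of Elane, Ctsg, Prtn3, Mpo and Camp passed the test. Elane, which digests matrix and bacterial proteins, had scaled signals of 3666 and 3315 on the MKP arrays, 1682 and 1369 on MK3, 1589 and 2104 on MK4, and 31.8, 620 and 36.6 on MK6. Its lowest values, on MK6 replicates 1 and 3, were below the filter of 46.7, so the size of its fall is uncertain. The difference between MK6 and MKP was -4.92 ± 0.86 log2 units (SE, adjusted p = 0.0119 in limma). In a bulk sample, fewer cells of a type and less RNA per cell cannot be told apart.

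Prtn3, a serine protease related to elastase, had 4259 and 3557 on MKP, 2042 and 2321 on MK3, 2301 and 2340 on MK4, and 133, 1258 and 196 on MK6. Ctsg, cathepsin G, had 3282 and 2611 on MKP, 1914 and 1625 on MK3, 1619 and 1777 on MK4, and 55.4, 727 and 57.5 on MK6. Mpo, myeloperoxidase, which makes hypochlorous acid, had 7922 and 6507 on MKP, 6352 and 5395 on MK3, 5268 and 4723 on MK4, and 216, 3239 and 372 on MK6. In all 4 primary granule genes MK6 replicate 2 stood far above the other MK6 arrays and still below every array of the earlier stages. Between MK6 and MKP the differences were -3.52 ± 0.68 for Prtn3 (adjusted p = 0.0177 in limma), -4.24 ± 0.79 for Ctsg (adjusted p = 0.0154 in limma) and -3.44 ± 0.82 for Mpo (adjusted p = 0.0369 in limma).

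**Figure D1:**
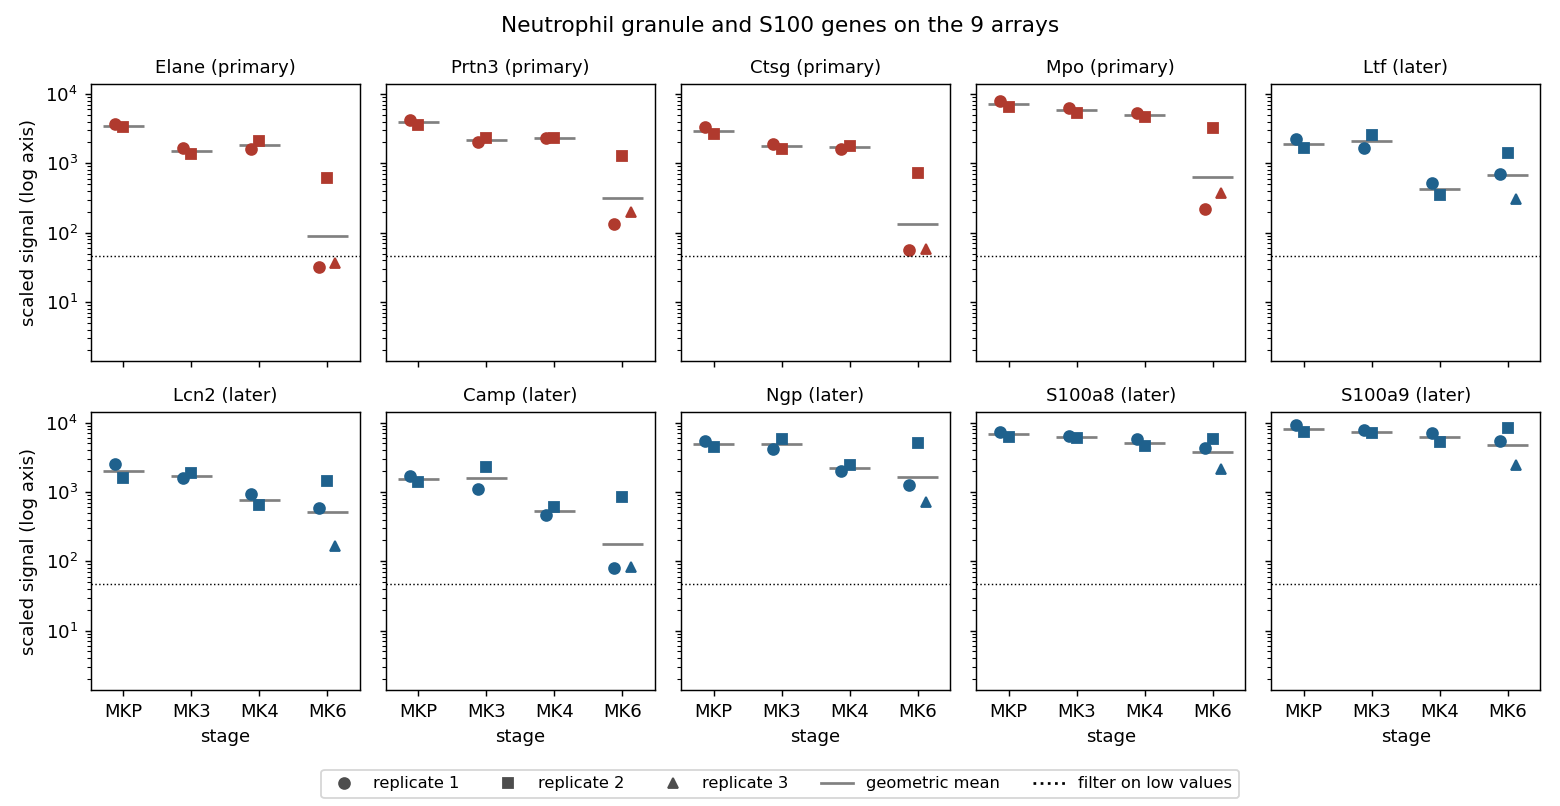
Scaled signal (vertical log axis) of each of the 10 genes on the 9 arrays, by stage, with primary granule genes in red and later ones in blue. Symbols give the replicate, grey bars the geometric mean of a stage, and the dotted line the filter of 46.7. In MK6 the squares of replicate 2 sit above the other arrays in every panel, and Elane is below the dotted line on replicates 1 and 3.

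Among the secondary granule genes, the level in MK4 was already below that in MKP and MK3. Ltf, the iron-binding lactoferrin, had 2224 and 1639 on MKP, 1673 and 2539 on MK3, 527 and 350.0 on MK4, and 694, 1407 and 306 on MK6. Thus both MK4 arrays lay under every MKP and MK3 array, while MK6 overlapped MK4. Lcn2, lipocalin 2, which binds bacterial siderophores, had 2495 and 1583 on MKP, 1571 and 1873 on MK3, 925 and 650.4 on MK4, and 582, 1455 and 167 on MK6. Camp, the cathelicidin precursor of an antimicrobial peptide, had 1721 and 1401 on MKP, 1093 and 2268 on MK3, 467 and 606 on MK4, and 80.3, 853 and 81.8 on MK6. Camp came nearest to the primary granule pattern in MK6. Ngp, a granule protein of the cathelicidin and cystatin type, had 5333 and 4476 on MKP, 4210 and 5702 on MK3, 1988 and 2455 on MK4, and 1243, 5145 and 723 on MK6. Its level on MK6 replicate 2 lay between the MKP arrays.

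S100a8 and S100a9, whose proteins form the antimicrobial dimer calprotectin, had the smallest differences of the 10 genes between MK6 and MKP. S100a8 had 7254 and 6282 on MKP, 6411 and 5925 on MK3, 5817 and 4573 on MK4, and 4298, 5820 and 2146 on MK6. S100a9 had 9257 and 7225 on MKP, 7908 and 6975 on MK3, 7032 and 5318 on MK4, and 5334, 8374 and 2472 on MK6. For S100a9 the MK6 and MKP arrays overlapped, and for S100a8 they did not, by a small margin.

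Between MK6 and MKP, 5 of the 10 genes were called lower in limma and 0 higher. Over all tested genes 2.94% were called lower and 5.69% in either direction. Those 5 were the 4 primary granule genes and Camp (-2.97 ± 0.77, adjusted p = 0.0495 in limma), whose call was the closest to the threshold. Lcn2 lay at -1.88 (adjusted p = 0.111 in limma), Ngp at -1.54 (adjusted p = 0.16), Ltf at -1.49 (adjusted p = 0.106), S100a8 at -0.84 (adjusted p = 0.212) and S100a9 at -0.77 (adjusted p = 0.304). The median difference was -3.88 over the primary genes and -1.51 over the later ones, beside 0.13 over all tested genes. All 3 MK6 arrays lay below both MKP arrays for 8 of the 10 genes, all 4 primary and 4 of 6 later ones, with Ngp and S100a9 the exceptions, against 18.8% of all tested genes.

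These calls rested on few arrays, and the share of all tested genes called in the alternative fits that follow was not counted. The count of 5 was 0 without MKP replicate 1, without MKP replicate 2 or without MK6 replicate 3, 3 without MK6 replicate 1 or either MK4 array, and 8 without MK6 replicate 2. With MK6 replicates 1 and 3 both left out, a choice made after seeing the data, Elane (-2.46, adjusted p = 0.0339), Ctsg (-1.99) and Prtn3 (-1.62) were still called in limma, Mpo (-1.14, adjusted p = 0.0954) and Camp (-0.85, adjusted p = 0.4) were not, and Ngp (0.074) and S100a9 (0.034) lay on the other side of 0. That fit assumes that the lone MK6 array varies like the other stages. Leaving out MK6 replicate 3 alone, the array with the highest beta-actin ratio, put S100a9 at -0.29, S100a8 at -0.43, Ltf at -0.94, Ngp at -0.94 and Lcn2 at -1.10. Without MK6 replicate 2 instead, Ngp lay at -2.35 and S100a9 at -1.17. With that beta-actin ratio in the fit none of the 10 was called, Elane lay at -3.27 (adjusted p = 0.374), and Lcn2 (0.060), S100a8 (0.16) and S100a9 (0.42) changed side. The ratio was higher on all 3 MK6 arrays than on all others, so RNA quality and stage cannot be told apart.

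**Figure D2:**
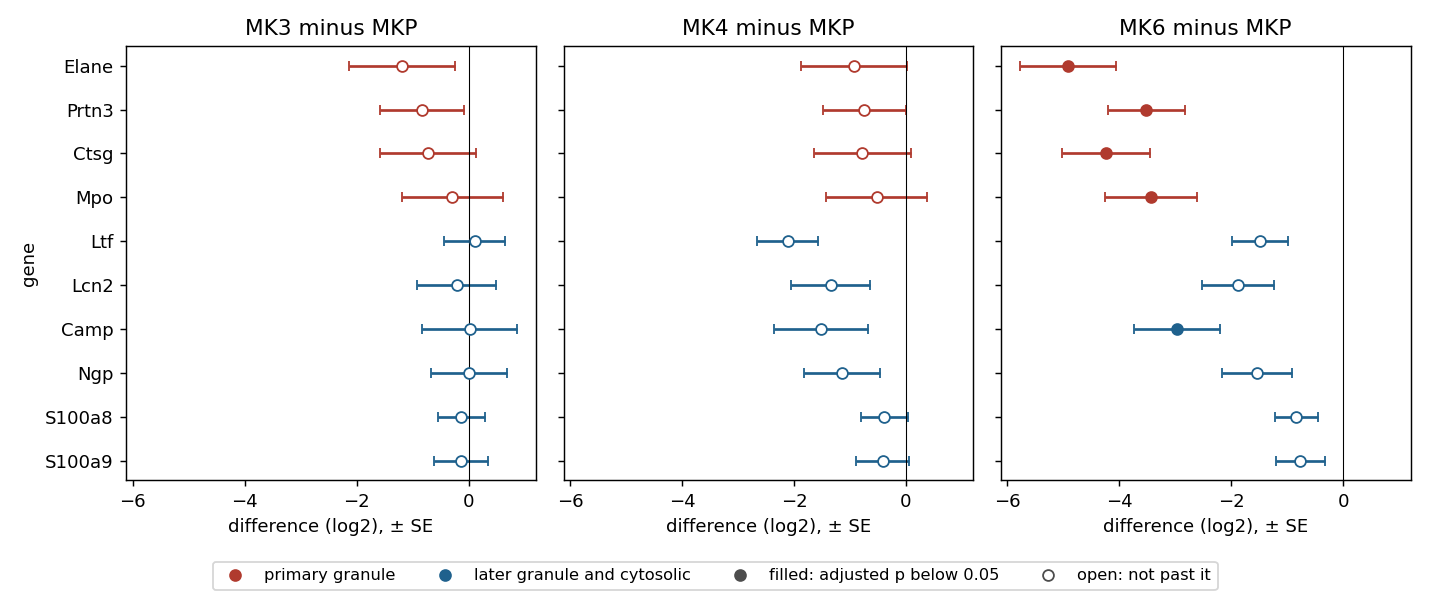
Differences from MKP (horizontal axis, log2 scale, ± SE from limma) for MK3, MK4 and MK6, with primary granule genes in red and later ones in blue. Filled points passed an adjusted p of 0.05: Elane, Prtn3, Ctsg, Mpo and Camp in MK6 minus MKP, and no gene in the other panels.

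None of the 10 genes was called between the earlier stages. In MK3 against MKP, 0 of the 10 genes were called in limma and 0 had an unadjusted p under 0.05. Of the 9397 genes tested, 931 had such an unadjusted p and 0.0532% were called. The primary genes lay at -1.19 (Elane), -0.83 (Prtn3), -0.73 (Ctsg) and -0.29 (Mpo), with both MK3 arrays below both MKP arrays in all 4 of them. No later gene was separated in this way, and these 6 ranged from -0.21 to 0.11. Over all tested genes 26.5% had MK3 arrays below both MKP arrays.

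MK4 against MKP also had 0 of the 10 genes called in limma, with 1 at an unadjusted p under 0.05 (Ltf), and the share of all tested genes called was 0%. Here both MK4 arrays lay below both MKP arrays for all 10 genes, against 23.2% of all tested genes. Ltf lay at -2.11 ± 0.55 (adjusted p = 0.469 in limma), Camp at -1.52, Lcn2 at -1.34 and Ngp at -1.14, while the primary genes ranged from -0.93 to -0.52. S100a8 and S100a9 lay at -0.39 and -0.42. In a fit to the arrays of these 2 stages alone 2 of the 10 genes were called, and with array quality weights 1. The share of all tested genes called in these fits was not counted.

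By their medians the groups of genes differed most at different steps, although neither step gave a call. For most later genes the second step depended on MK6 replicate 2. In MK4 against MK3 the primary genes ranged from -0.23 to 0.27 (median 0.018), and the later ones from -2.22 (Ltf) to -0.26 (S100a8) with a median of -1.14. Both MK4 arrays were below both MK3 arrays for 5 of 6 later genes and 1 of 4 primary genes (Mpo), against 12.7% of all tested genes, with 0.0106% called. In MK6 against MK4 the primary genes lay at -3.995 (Elane, adjusted p = 0.137 in limma), -3.45 (Ctsg), -2.92 (Mpo) and -2.77 (Prtn3), and the later ones from -1.45 (Camp) to 0.63 (Ltf) with a median of -0.42. All 3 MK6 arrays were below both MK4 arrays for all 4 primary genes and 0 of 6 later genes, against 9.82% of all tested genes. For Lcn2, Camp, Ngp and S100a8, MK6 replicates 1 and 3 were below both MK4 arrays and only replicate 2 was not. For Ltf and S100a9 replicate 1 was not below both MK4 arrays either. Here 0 of the 10 were called in limma and 4 had an unadjusted p under 0.05. Of the 9397 genes tested, 983 had such an unadjusted p and 0.0213% were called. These comparisons share arrays with those above, and the difference between the groups of genes was not tested. Without MK6 replicate 2, 5 of the 10 genes, the 4 primary ones and Camp, were called lower in MK6 than in MK4. The share of all tested genes called in that fit was not counted.

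Set against their own MKP mean, the groups of genes can be read within each array. The mean of the 4 primary genes lay at -0.69 and -0.83 on the MK3 arrays, -0.79 and -0.69 on MK4, and -5.32, -1.80 and -4.96 on MK6. For Ltf, Lcn2, Camp and Ngp together the mean was -0.31 and 0.27 on MK3, -1.48 and -1.58 on MK4, and -2.30, -0.42 and -3.20 on MK6. S100a8 and S100a9 together lay at -0.061 and -0.21 on MK3, -0.22 and -0.59 on MK4, and -0.63, -0.09 and -1.68 on MK6. The primary genes were therefore below both other groups on every MK3 and MK6 array, and the 4 secondary granule genes were the lowest on both MK4 arrays. The primary mean minus the mean of all 6 later genes was -2.45 ± 1.05 in MK6 (SD, n = 3), 0.41 ± 0.21 in MK4 (SD, n = 2) and -0.70 ± 0.34 in MK3 (SD, n = 2), relative to 0 ± 0.08 in MKP (SD, n = 2). This difference is taken within an array, and no p is given for it because the genes were chosen with earlier results known.

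**Figure D3:**
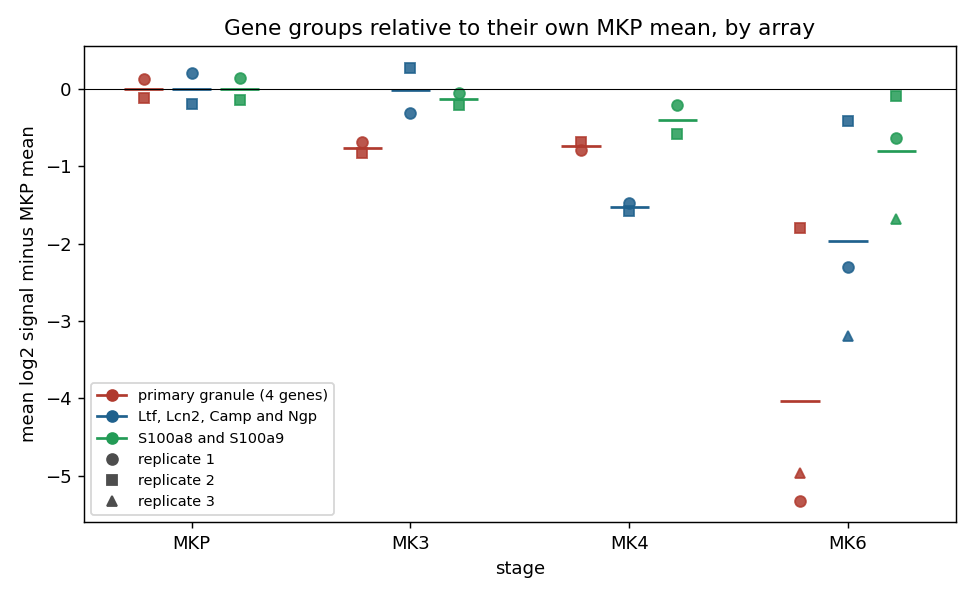
Mean log2 signal of 3 groups of genes minus the group's own MKP mean (vertical axis) on each of the 9 arrays, by stage. Symbols give the replicate and bars the stage mean. The blue group is at -1.48 and -1.58 on MK4, where the red primary group is at -0.79 and -0.69, and on MK6 the red points reach -5.32, -1.80 and -4.96.

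MK6 arrays differed from each other more than those of any other stage. The range among MK6 arrays was 3.10 to 3.81 log2 units for the primary genes and 1.43 to 3.18 for the later ones, with a median of 0.73 over all tested genes. In the other stages the 10 genes had ranges of 0.024 to 1.04. There the median over all tested genes was 0.221 in MKP, 0.349 in MK3 and 0.273 in MK4. A range tends to widen with the number of arrays, which was 3 in MK6 and 2 in each other stage. On replicate 2 the signal was 16.9 times the higher of the other MK6 arrays for Elane, 12.6 times for Ctsg, 10.4 times for Camp, 8.71 times for Mpo and 6.42 times for Prtn3. It was 4.14 times for Ngp, 2.50 times for Lcn2, 2.03 times for Ltf, 1.57 times for S100a9 and 1.35 times for S100a8.

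Some members of related gene lists also fell. Of 8 measured genes listed with the primary granule besides the 4, 3 were called lower and 0 higher in MK6 against MKP. Over all tested genes 2.94% were called lower. The median of the 8 was -0.86, against 0.13 over all tested genes. Ms4a3, a membrane protein of granulocyte and monocyte progenitors, fell (-2.31 ± 0.30, adjusted p = 0.00444 in limma). Nkg7, a granule membrane protein (-2.001, adjusted p = 0.0106 in limma), and Ctsc, which activates the serine proteases (-1.18, adjusted p = 0.049), also fell. Ms4a3 had 166, 311 and 160 on the MK6 arrays, against 1236 and 912 on the MKP arrays. Serpinb1a, an inhibitor of elastase and cathepsin G, lay at -2.43 ± 0.87 (adjusted p = 0.125) with 12.6, 507 and 188 on the MK6 arrays, against 852 and 671 on the MKP arrays. Lyz2, the lysozyme of myeloid cells, lay at 0.20 (adjusted p = 0.79). Srgn lay at -0.044, Gusb at -0.14 and Calr at -0.54, and none of these was called.

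Of 17 measured later granule and effector genes, 7 were called lower and 1 higher in MK6 against MKP in limma, with a median of -1.70. Over all tested genes 2.94% were called lower and 5.69% in either direction, with a median of 0.13. Among those that fell were the haptoglobin gene Hp (-3.65 ± 0.63, adjusted p = 0.0113), Chil3, a chitinase-like protein (-3.05, adjusted p = 0.0145), Ncf1, a cytosolic subunit of the NADPH oxidase (-2.67, adjusted p = 0.0122), and Cd177, a neutrophil surface protein (-2.42, adjusted p = 0.0228). For these 4 at least 1 MK6 array was below the filter of 46.7 (Hp 24.2, Ncf1 46.0 and Cd177 4.27 on replicate 3, Chil3 13.5 on replicate 1), so the sizes of their falls and their order are uncertain. Hp had 101, 294 and 24.2 on MK6, against 1572 and 1232 on MKP. Cd177 had 52.0, 74.8 and 4.27 on MK6, against 238 and 255 on MKP, and 73.9 and 75.2 on MK4. The 1 higher gene was Adam8, a metalloprotease of leukocytes (2.27, adjusted p = 0.0325), named after its value was seen, with 3248, 1332 and 990 on MK6, against 351 and 299 on MKP.

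Of 13 measured regulators of granulocyte development, 5 were called lower and 0 higher in MK6 against MKP in limma, with a median of -1.20. Over all tested genes 2.94% were called lower, with a median of 0.13. The 5 called genes included Gfi1, a repressor needed for neutrophil maturation (-3.19 ± 0.56, adjusted p = 0.0122), Myb (-3.01 ± 0.58, adjusted p = 0.0175), the receptor gene Csf3r for granulocyte colony-stimulating factor (-2.39, adjusted p = 0.00621) and Cebpd, a C/EBP factor (-2.05, adjusted p = 0.0318). The other was Spi1, which encodes PU.1 (-1.31, adjusted p = 0.0332 in limma). Myb had 50.5, 424 and 196 on MK6, against 1396 and 1515 on MKP, and was at 511 and 593 on MK3. Gfi1 had 2.52, 63.2 and 1.18 on MK6, of which only replicate 2 was above the filter, against 215 and 273 on MKP, and Cebpd was below it on replicate 3 (26.6), so the sizes of both falls are uncertain. Within MK6, Gfi1, Myb and Cebpd (84.5, 167 and 26.6) were highest on replicate 2, as the granule and S100 genes chosen by name were. The other called regulators, Csf3r (157, 136 and 65.2) and Spi1 (384, 267 and 194.5), were highest on replicate 1. Cebpa, which encodes C/EBPα, lay at 0.045 (adjusted p = 0.956) and Cebpb at 0.24 (adjusted p = 0.642). Cebpe, which encodes C/EBPε, was not measured. Cebpa had 1279, 583 and 447 on MK6, against 679 and 668 on MKP, so that MK6 replicate 1 had the highest Cebpa signal and the lowest Mpo and Elane signals.

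**Figure D4:**
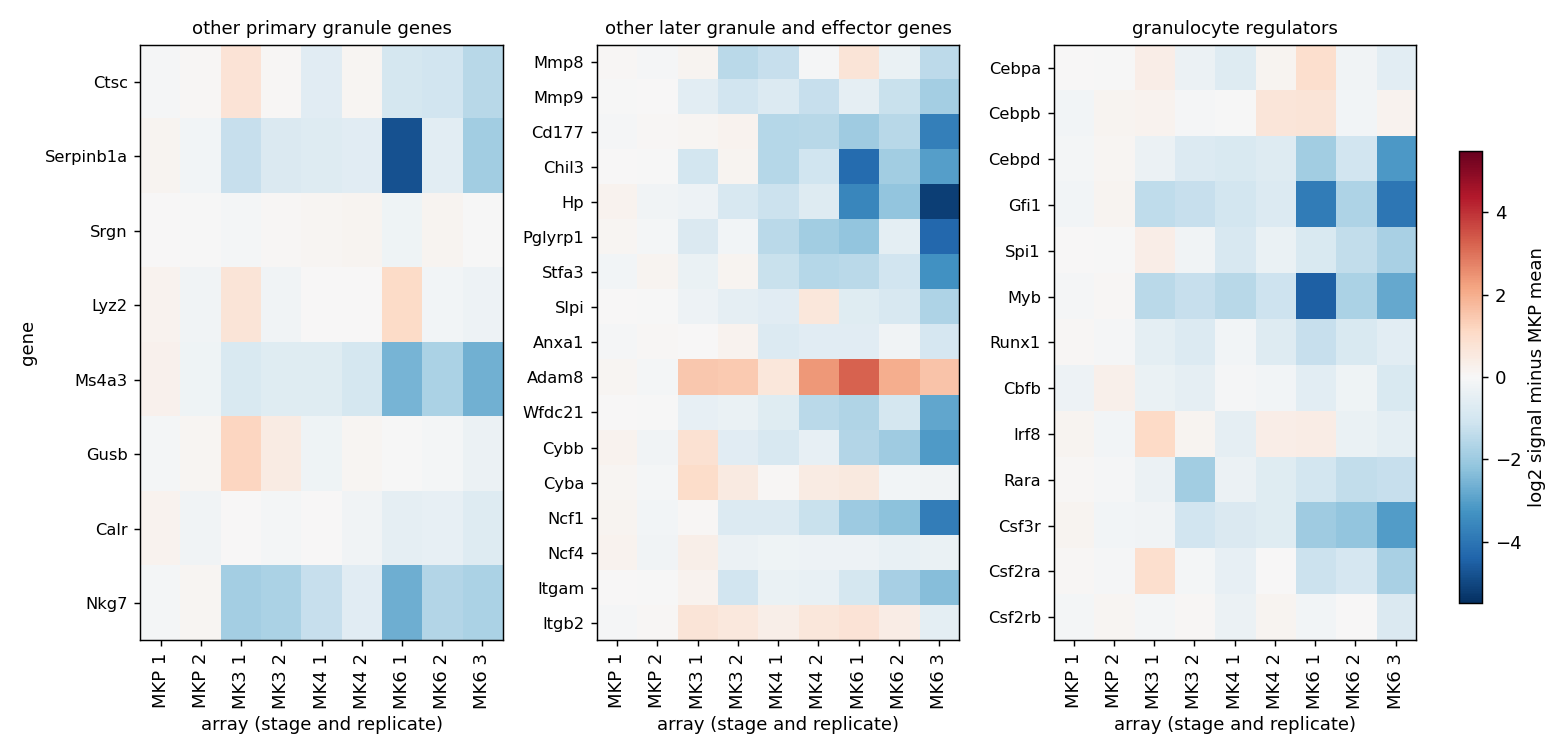
Log2 signal minus the gene's MKP mean (colour, blue lower and red higher) on the 9 arrays (columns) for the measured members (rows) of 3 lists: other primary granule genes, other later granule and effector genes, and granulocyte regulators. Gfi1, Myb and Hp are blue on MK6 replicates 1 and 3, Adam8 is red on all arrays after MKP, and Cebpa is near or above its MKP level on MK6 replicate 1.

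Markers of other cells also differed. In MK6 against MKP 2.94% of all tested genes were called lower and 5.69% in either direction, with a median of 0.13. Of 8 measured markers of mature neutrophils 3 were called lower in MK6 against MKP and 0 higher: Cd177 and Csf3r, which are also in the lists above, and Fpr2, a formyl peptide receptor (-1.58, adjusted p = 0.017). In all, 4 of the 8 are members of those lists. The summed signal of the 8 was 3318, 1722 and 933 on MK6 replicates 1, 2 and 3, against 3661 and 3354 on the MKP arrays. Most of the sum on MK6 replicate 1 came from Mmp8, the neutrophil collagenase, with 2392 there, 1148 and 525 on the other MK6 arrays, and 1550 and 1393 on MKP. Of 10 monocyte and macrophage markers 2 were called higher (Cd68, 2.003, and Ctss, 1.85) and 0 lower, 4 were below 0, and the median was 0.122. Their sum was 17710, 8085 and 9895 on the MK6 arrays, against 6035 and 5311 on the MKP arrays. Ctss, Cd14 and Cd68 carried that difference: the other 7 summed to 2767, 1983 and 1503 on MK6, against 3338 and 2823 on MKP. C1qa lay at -1.70, C1qb at -1.58, Csf1r at -0.95 and Adgre1 at -0.51, and none of these 4 was called. The 10 summed to 23020 and 13020 on MK3 and to 7969 and 14450 on MK4. In MK3 against MKP 0 of the 10 were below 0, with a median of 2.28. There 1 was called higher (Mrc1, 3.06, adjusted p = 0.011 in limma), against 0.0532% of all tested genes called. In MK4 against MKP 0 were below 0 and 0 were called, with a median of 1.24. Of 9 mast cell and basophil markers 1 was called lower (Hdc, -3.1) and 0 higher, 6 were below 0, and the median was -0.047. Those above 0 were Fcer1a (1.34), Tpsab1 (0.69) and Tpsb2 (0.40), and none of them was called. The 9 summed to 682 to 828 on MK6, against 1099 and 1326 on MKP. The 3 eosinophil markers tested, 1 of which was called lower, summed to 52.6 to 112 on MK6, against 206 and 250 on MKP. Counts at or below the filter on low values follow for MK6 replicates 1, 2 and 3. They were 2, 3 and 3 of the 3 eosinophil markers, and 1, 4 and 1 of the 9 mast cell and basophil markers. For mature neutrophils they were 0, 1 and 3 of 8, and for monocytes and macrophages 1, 0 and 2 of 10. On the MKP arrays only mast cell and basophil markers were at or below it (3 and 2 of 9). The part of these cell types in the granule gene results was not tested.

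The genes whose profile over the 9 arrays was most like the mean of the primary genes were B4galnt1, a ganglioside enzyme (Pearson's r 0.99, Spearman's rho 0.933), Atox1, a copper chaperone (0.988 and 0.883), Coro1a, an actin regulator (0.985 and 0.85), Eif4a1, a translation factor (0.985 and 0.833), Ddost, a subunit of oligosaccharyltransferase (0.983 and 0.9), Ube2s, a ubiquitin-conjugating enzyme (0.981 and 0.917), Mgat2, a glycosylation enzyme (0.978 and 0.783), and the thymidine kinase Tk1 (0.976 and 0.883). Without MK6 replicates 1 and 3 their r was 0.777 to 0.971. Most like the later genes were Arhgdib (0.984 and 0.983), Pglyrp1, a bactericidal protein of neutrophil granules (0.983 and 0.967), Mapk13 (0.953 and 0.983), Stfa3, a cysteine protease inhibitor of neutrophils (0.947 and 0.917), the leukotriene B4 receptor gene Ltb4r1 (0.946 and 0.9), Wfdc21 (0.943 and 0.967), Map3k11 (0.942 and 0.95) and Sun2 (0.935 and 0.9). For these r was 0.759 to 0.967 without the same 2 arrays. Both group means were lowest on MK6 replicates 1 and 3, which bear on r, so these values rank likeness only. Pglyrp1, which was not called, had 230 and 169 on MK4, 389 and 603 on MK3, and 734 and 628 on MKP. It was picked for its likeness to the later genes on these arrays, so its lower MK4 level is no separate support.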

How the data were processed

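The deposited values are linear intensities, 1 per probe set and array. The submitters' processing notes name MAS5 as the tool the authors ran, without version or settings. Probe sets with 1 gene in the platform annotation (20380 of 22690) were kept, and 20351 of them matched RefSeq for the current symbol. Each array was multiplied to a common mean of 161, with 2% trimmed from each end, which leaves out changes in total RNA per cell. Low probe sets were dropped: 2 or more arrays had to exceed a scaled 46.7, the 40th percentile. The probe set with the highest mean stood for its gene. A pseudocount of 15.2, the 20th percentile, was added before taking log2, so a fold of a dim gene is understated. All 9 arrays entered 1 limma 3.58.1 fit (R 4.3.3) with a mean per stage, leaving 5 residual degrees of freedom. Variances were moderated by eBayes along the intensity trend, and the script was tested on simulated data. Differences carry SE, and p was adjusted by Benjamini-Hochberg within each of 5 comparisons, which share arrays.

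The genes, lists and alternatives were chosen with earlier results of these data known. Named were all 10 genes, the 8 genes most like each group's mean profile by Pearson's r, and the 4 members of each related list that differed most between MK6 and MKP in size. Other genes were picked with their values in view. The number of arrays limits the precision.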

Additional observations from a re-analysis of the deposited data

How the results depend on the processing

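Of the 25 alternatives (24 planned, and the joint loss of MK6 replicates 1 and 3 chosen after seeing the data), the calls of Elane, Ctsg and Prtn3 in MK6 against MKP ended in 4 each, that of Mpo in 12 and that of Camp in 17. The 5 genes called there became 3 with no filter on low values, with a common median, with no intensity trend, with the arrays of the 2 stages alone and without MK6 replicates 1 and 3, 0 with the beta-actin covariate, 10 with array quality weights and 8 without MK6 replicates 2 and 3, and ran from 0 to 8 with 1 array left out. From 0, the count became 1 (weights) and 2 (2 stages alone) in MK4 against MKP, 1 (2 stages alone) in MK3 against MKP, and 3 (unscaled), 4 (weights) and 5 (without MK6 replicates 2 and 3) in MK6 against MK4, where single arrays left out gave 0 to 5. The primary minus later difference was -3.58 without MK6 replicates 2 and 3 and -1.50 without replicates 1 and 3. The share of all tested genes called under each alternative was not counted, and the causes were not tested.

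Uncalled differences that changed sign follow. In MK6 against MKP these were Lcn2 (0.060), S100a8 (0.16), S100a9 (0.42) and Pglyrp1 (0.053) with the covariate, and Ngp (0.074) and S100a9 (0.034) without MK6 replicates 1 and 3. In MK3 against MKP these were Camp (-0.043) with quantile normalization, Lcn2 (0.0051) with the covariate and, with 1 array left out, Ltf (-0.19 to 0.41), Lcn2 (-0.54 to 0.115), Camp (-0.50 to 0.54), Ngp (-0.21 to 0.22) and S100a9 (-0.32 to 0.040). In MK4 against MK3 these were Prtn3 (-0.031, common median; -0.0002003 to 0.18 with 1 array left out), Ctsg (0.056 quantile, 0.21 unscaled, 0.00471 covariate, -0.17 to 0.0614 with 1 array left out), Mpo (0.035, unscaled) and S100a8 (0.0092, unscaled). In MK6 against MK4 these were Ltf (-0.015 unscaled, -0.041 weights), Lcn2 (-1.26 to 0.24 with 1 array left out, 1.11 covariate, 0.90 without MK6 replicates 1 and 3), Ngp (-1.21 to 0.20, 0.89 and 1.21 in the same settings), S100a9 (-0.75 to 0.13, 0.66 and 0.45), S100a8 (0.40 covariate, 0.17 without MK6 replicates 1 and 3) and Camp (0.67, without both). Unscaled values shifted the median of all tested genes to -0.20 in MK6 against MKP and -0.52 in MK6 against MK4. Among 699 values for the 28 other named genes, 126 ended a call, 25 gained one and 1 changed sign.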
